A study of Mus musculus with 4 samples.

Results

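Stromal matrix and smooth muscle genes were followed in laser-captured gland cells of the mouse stomach, to see how far RNA typical of the tissue around the glands was present in the captured material. The set comprised 36 named genes, of which 25 encode matrix proteins or mark fibroblasts and 11 encode the contractile apparatus of smooth muscle. A gene entered where a probe set named it and no other gene, which held for 35 of 36 genes of 19938 genes in all. The exception was Fbn1, the gene of fibrillin, which was not analysed here. The matrix and fibroblast block thus had 24 genes and the smooth muscle block 11 genes, each read by 1 probe set.

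The study compared mucous neck cells and zymogenic (chief) cells of the adult stomach in wild-type mice and in MIST1 knockout mice, all of C57BL/6 background, on Affymetrix Mouse Gene 1.0 ST arrays. MIST1, the product of Bhlha15, is a transcription factor that supports secretory cells. There was 1 array in each of the 4 groups, made from RNA pooled over several dissections and several mice, so no difference has a replicate check and none carries a p-value. The design text gives 4 wild-type and 5 knockout mice, without assigning them to the pools. The sources used here say no more of age than adult, and do not say how MIST1 was removed. Zymogenic cells were taken from the gland base, below the cells stained by the lectin GS-II, and were recognised by position and by lacking the shape of parietal cells.

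The lamina propria is the loose connective tissue that surrounds gastric glands, and the muscularis mucosae is the thin sheet of smooth muscle just beneath their bases. Fibroblasts of the lamina propria secrete collagens, proteoglycans and glycoproteins, while smooth muscle cells express actin, myosin and their regulators under control of serum response factor, which binds the CArG box. Epithelial gland cells express little of either program, although several of these genes are also active in pericytes, endothelium or leukocytes. In pooled tissue, a lower content of such cells and less RNA per cell cannot be told apart.

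Levels below are array intensities on a linear scale and differences are on the log2 scale, where 1 is a 2-fold difference. The median of all values from probe sets with 1 gene, an intensity of 43.7, served as a mark of low signal, and it is not a measured background. Intensities are not set against each other between genes, since probe sets differ in response. Bhlha15 read 149.8 in wild-type zymogenic and 59.7 in wild-type neck cells, against 22.0 and 20.2 in the corresponding MIST1-null cells. In each genotype, zymogenic cells were at least 2-fold lower than neck cells for 5 of 6 mucous neck markers. Summed intensities of that list were 9616 and 11845 in wild-type and MIST1-null neck cells against 1839 and 689 in zymogenic cells. Of 6 zymogenic products, 3 passed 2-fold in favour of zymogenic cells in each genotype, namely Chia1 and Cblif with Bhlha15 in wild-type and Cpb1 in MIST1-null mice. The pepsinogen gene Pga5 went against the label of that list, with differences of -5.45 and -6.53. The 6 summed to 14313 and 14212 in neck cells, so the neck arrays also carried these transcripts, against 23289 and 24793 in zymogenic cells.

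Because the contractile genes are known targets of serum response factor, the 250 bases before their annotated starts were read from RefSeq promoter sequences of build GRCm38.p6, which covered 25 of the 36 genes, 8 of them contractile. A CArG-like match was taken as CC and GG around 6 central bases with at most 1 C or G among them, a pattern that reads alike on both strands. Such matches stood before Acta2 and Myl9, each with 2 of them, among 8 contractile genes, and before Col1a2 and Col6a3 among 17 matrix and fibroblast genes. Of all 32851 promoters of this length, 8.59% held at least 1 match and 0.67% held 2 or more. The 3 stretches shown are those of the contractile genes Acta2 and Tpm2, which differed most between cell types in wild-type mice, and of Myl9, which differed little. They run from chr19:34255374-34255623 on the minus strand for Acta2, chr2:156775214-156775463 on the plus strand for Myl9 and chr4:43523555-43523804 on the minus strand for Tpm2, with the matches in capitals:
Acta2: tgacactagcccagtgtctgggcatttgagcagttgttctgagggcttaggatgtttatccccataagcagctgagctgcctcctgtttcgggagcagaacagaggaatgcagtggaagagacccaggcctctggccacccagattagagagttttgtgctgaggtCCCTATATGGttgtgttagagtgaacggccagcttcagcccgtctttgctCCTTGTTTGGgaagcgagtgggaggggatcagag
Myl9: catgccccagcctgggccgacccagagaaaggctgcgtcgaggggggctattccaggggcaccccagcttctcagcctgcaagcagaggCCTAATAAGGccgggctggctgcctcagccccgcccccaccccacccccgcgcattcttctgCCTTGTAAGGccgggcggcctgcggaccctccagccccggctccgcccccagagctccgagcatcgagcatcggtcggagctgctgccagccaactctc
Tpm2: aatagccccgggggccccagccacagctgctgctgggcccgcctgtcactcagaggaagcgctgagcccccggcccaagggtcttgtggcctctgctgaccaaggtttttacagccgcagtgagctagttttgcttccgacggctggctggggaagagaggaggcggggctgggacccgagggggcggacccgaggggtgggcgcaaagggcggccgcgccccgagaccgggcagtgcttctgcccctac

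The matches before Acta2 began 84 and 34 bases ahead of the start, and those before Myl9 began 161 and 99 bases ahead. Cell type differences in wild-type mice, as given below, were 2.17 for Acta2, 2.24 for Tpm2 and 0.14 for Myl9. Myl9 reached the mark of low signal on 1 array alone. Whether the matches bear on these differences was not tested. A match describes letters only and says nothing of binding.

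Stromal genes were higher in zymogenic than in neck cells of both genotypes. In wild-type mice 32 of 35 genes had a difference above 0, with a median of 0.71 against 0.05 over all genes, and 13 were at least 2-fold higher while 0 were 2-fold lower. Among all genes, 5.85% were at least 2-fold higher in that comparison and 5.29% lower. In MIST1-null mice 31 of 35 were above 0, with a median of 0.90 against 0.05, and 16 were at least 2-fold higher and 0 lower, where 4.09% of all genes were higher and 3.89% lower. These comparisons rest on separate arrays, and 12 genes were at least 2-fold higher in both, as were 1.21% of all genes. For 28 of 35 genes both zymogenic arrays read above both neck arrays, which held for 23.1% of all genes.

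Matrix and contractile genes both had a positive median difference between the cell types. The matrix and fibroblast block had medians of 0.63 in wild-type and 0.89 in MIST1-null mice, with 8 and 11 of 24 genes at least 2-fold higher. The smooth muscle block had medians of 0.81 and 0.95, with 5 of 11 genes at least 2-fold higher in each genotype. Of these, 4 were the same genes in both genotypes. The other 1 was Des in wild-type (1.03) and Tagln in MIST1-null mice (1.09). Both were under the mark of low signal on every array, and with a pseudocount of 32 they were at 0.46 and 0.52. With a pseudocount of 32 the medians were 0.40 and 0.62 for matrix and 0.46 and 0.50 for muscle genes. Both zymogenic arrays read above both neck arrays for 21 of 24 matrix genes (87.5%) and for 7 of 11 muscle genes (63.6%), and whether the blocks differ was not tested. The shares of genes past 2-fold were above the background in both blocks. The members were chosen with earlier results of these data known, so these shares and those of the whole set are a description only. Within each the genes spread widely, from -0.22 to 2.31 for matrix and from -0.46 to 2.24 for muscle in wild-type mice.

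**Figure D1:**
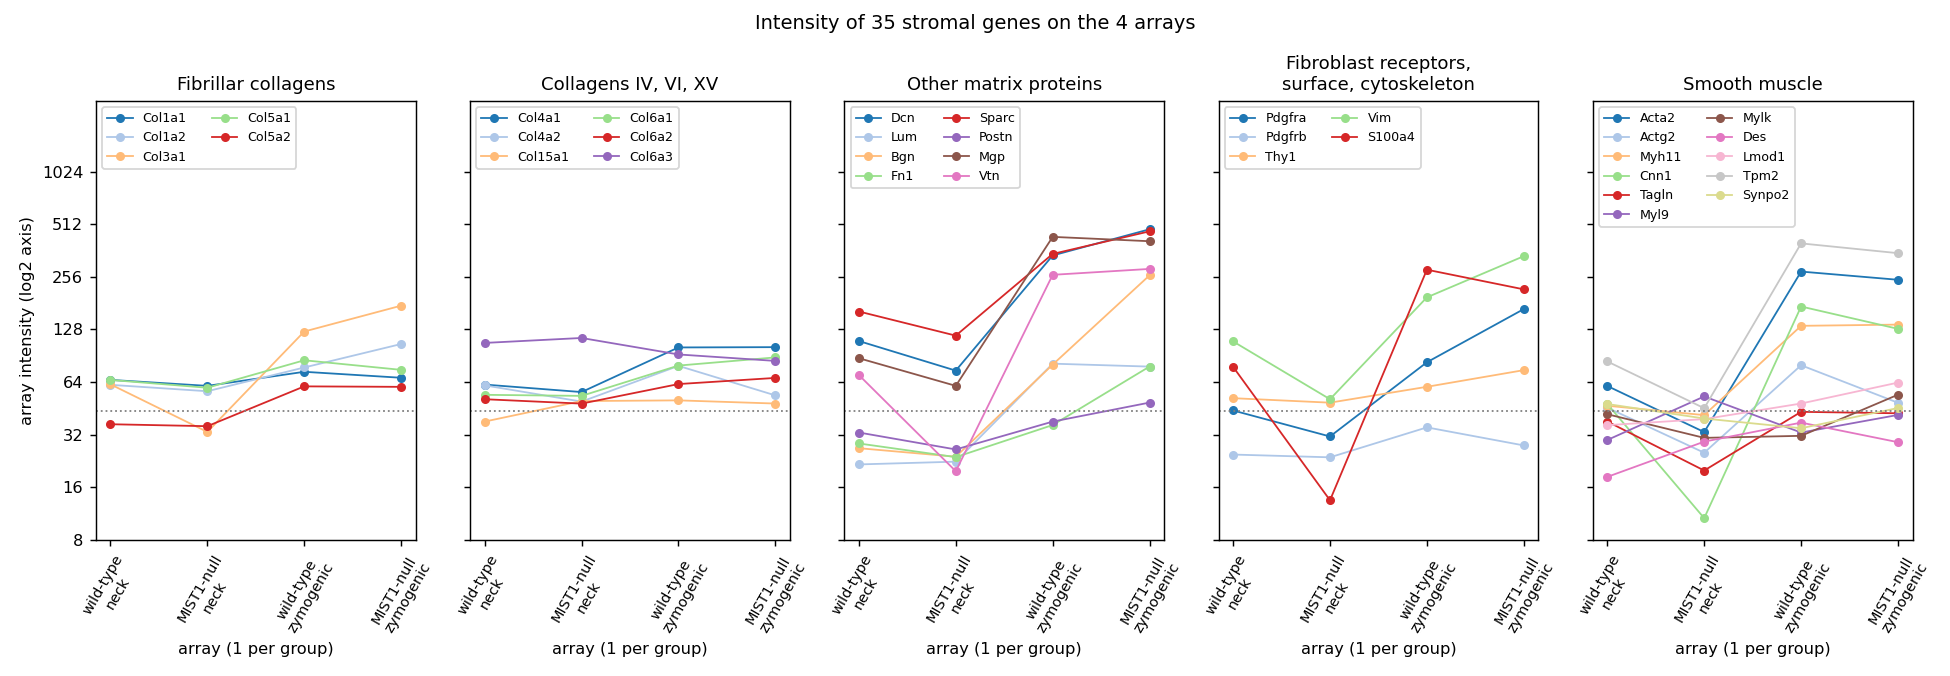
Intensity of the 35 genes (log2 axis) on each of the 4 arrays, in 5 panels by role, with lines joining the values of a gene and a dotted line at the intensity of 43.7. Most lines dip at MIST1-null neck and stand higher on both zymogenic arrays, least so for the collagens.

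Fibrillar collagens, which form the tensile fibres of connective tissue, differed modestly apart from Col3a1. Col3a1, the chain of the fine reticular fibres, read 62.0 in wild-type neck, 124 in wild-type zymogenic, 33.1 in MIST1-null neck and 175 in MIST1-null zymogenic cells. Both zymogenic arrays were above both neck arrays, with differences of 1.00 and 2.40, and the MIST1-null neck value lay under the mark of low signal. Col1a1, a chain of the main fibrillar collagen, read 65.8 in wild-type neck, 73.2 in wild-type zymogenic, 60.8 in MIST1-null neck and 67.7 in MIST1-null zymogenic cells. Its difference was 0.15 in each genotype, the smallest of the fibrillar chains, although its partner chain Col1a2 differed by 0.33 and 0.90. The minor fibrillar chains Col5a1 and Col5a2 differed by 0.34 to 0.75.

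Collagens of basement membranes and of beaded filaments stayed under 2-fold in every comparison. Col4a1 and Col4a2, the network chains of basement membrane, are transcribed in opposite directions from annotated starts 21 bases apart. Col4a1 differed between cell types by 0.71 in wild-type and 0.85 in MIST1-null mice, and Col4a2 by 0.37 and 0.12. The chains of collagen VI, which makes filaments around cells, did not run together: Col6a1 differed by 0.56 and 0.73 and Col6a2 by 0.29 and 0.49. Col6a3 read 107 in wild-type neck, 92.0 in wild-type zymogenic, 114 in MIST1-null neck and 84.5 in MIST1-null zymogenic cells. It was the single gene of the 35 with both neck arrays above both zymogenic arrays, a pattern of 16.9% of all genes, and its differences were -0.22 and -0.44. Col15a1, of the basement membrane zone, differed by 0.40 and -0.05.

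Secreted matrix proteins other than collagens had larger differences, with 2-fold or more excess in zymogenic cells for 6 of 8 genes in wild-type and 7 of 8 in MIST1-null mice. Mgp, an inhibitor of calcification, read 87.5 in wild-type neck, 433 in wild-type zymogenic, 60.8 in MIST1-null neck and 409 in MIST1-null zymogenic cells. The cell types were far apart in both genotypes, by 2.31 and 2.75, and the zymogenic arrays lay close together. Sparc, a collagen-binding glycoprotein, read 162 in wild-type neck, 346 in wild-type zymogenic, 118 in MIST1-null neck and 466 in MIST1-null zymogenic cells. Its differences were 1.09 and 1.98, with the genotypes on opposite sides in the 2 cell types. Vtn, the adhesion protein vitronectin, which is best known from liver and plasma, read 70.1 in wild-type neck, 263 in wild-type zymogenic, 19.8 in MIST1-null neck and 284 in MIST1-null zymogenic cells. The larger difference in MIST1-null mice, 3.85 against 1.90, went with the low MIST1-null neck value rather than with the zymogenic arrays. Fn1, fibronectin, read 28.5 in wild-type neck, 36.3 in wild-type zymogenic, 23.8 in MIST1-null neck and 78.5 in MIST1-null zymogenic cells. It was thus above the mark of low signal on the MIST1-null zymogenic array alone, with differences of 0.35 and 1.72. Postn, periostin, which binds collagen, differed by 0.21 and 0.89 and likewise passed that mark on that array alone.

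The small leucine-rich proteoglycans, which coat collagen fibrils and regulate their thickness, had a zymogenic excess of at least 2-fold in both genotypes in all 3 cases in the set, although Bgn in wild-type mice was at 0.94 with a pseudocount of 32. Decorin, Dcn, read 109.8 in wild-type neck, 339 in wild-type zymogenic, 74.3 in MIST1-null neck and 479 in MIST1-null zymogenic cells, with differences of 1.63 and 2.69. Biglycan, Bgn, read 26.8 in wild-type neck, 80.5 in wild-type zymogenic, 23.9 in MIST1-null neck and 261 in MIST1-null zymogenic cells. The MIST1-null zymogenic array stood apart for Bgn, so that its differences were 1.59 and 3.45. Lumican, Lum, read 21.6 in wild-type neck, 81.5 in wild-type zymogenic, 22.4 in MIST1-null neck and 78.4 in MIST1-null zymogenic cells. In contrast to Bgn, Lum had nearly the same values in both genotypes, and its neck values were both under the mark of low signal. In a separate list of 38 other matrix genes, 5 further proteoglycans of this family had medians of 0.26 and 0.99, and 6 further collagens had 0.05 and 0.43.

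The collagens as a class therefore differed less than the remaining matrix and fibroblast genes, a split made after the values were seen. The 11 collagens had medians of 0.37 in wild-type and 0.49 in MIST1-null mice, with 1 gene at least 2-fold higher in each. The 13 other genes of the block had medians of 1.09 and 2.42, with 7 and 10 at least 2-fold higher. The mean over 4 arrays reached the mark of low signal for all 11 collagens.

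Among receptors, surface and cytoskeletal genes of fibroblasts, Pdgfra, the receptor for platelet-derived growth factors that marks fibroblasts, read 44.0 in wild-type neck, 83.0 in wild-type zymogenic, 31.2 in MIST1-null neck and 167 in MIST1-null zymogenic cells. Its cell type differences were 0.92 and 2.42. Pdgfrb, the related receptor of pericytes, was under the mark of low signal on every array, from 23.7 to 35.2. Vim, the intermediate filament protein vimentin, read 109 in wild-type neck, 195 in wild-type zymogenic, 51.0 in MIST1-null neck and 336 in MIST1-null zymogenic cells, with differences of 0.84 and 2.72. The cell types were thus 1.88 further apart in MIST1-null mice, from a lower neck and a higher zymogenic value. S100a4, a calcium-binding protein of fibroblasts and leukocytes, read 78.1 in wild-type neck, 281 in wild-type zymogenic, 13.5 in MIST1-null neck and 217 in MIST1-null zymogenic cells. Its difference of 4.01 in MIST1-null mice was the largest of the 35 genes, against 1.85 in wild-type mice, and rests on a neck value far under the mark of low signal; it was 2.45 and 1.51 with a pseudocount of 32. Thy1, a surface glycoprotein, differed by 0.22 and 0.62.

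**Figure D2:**
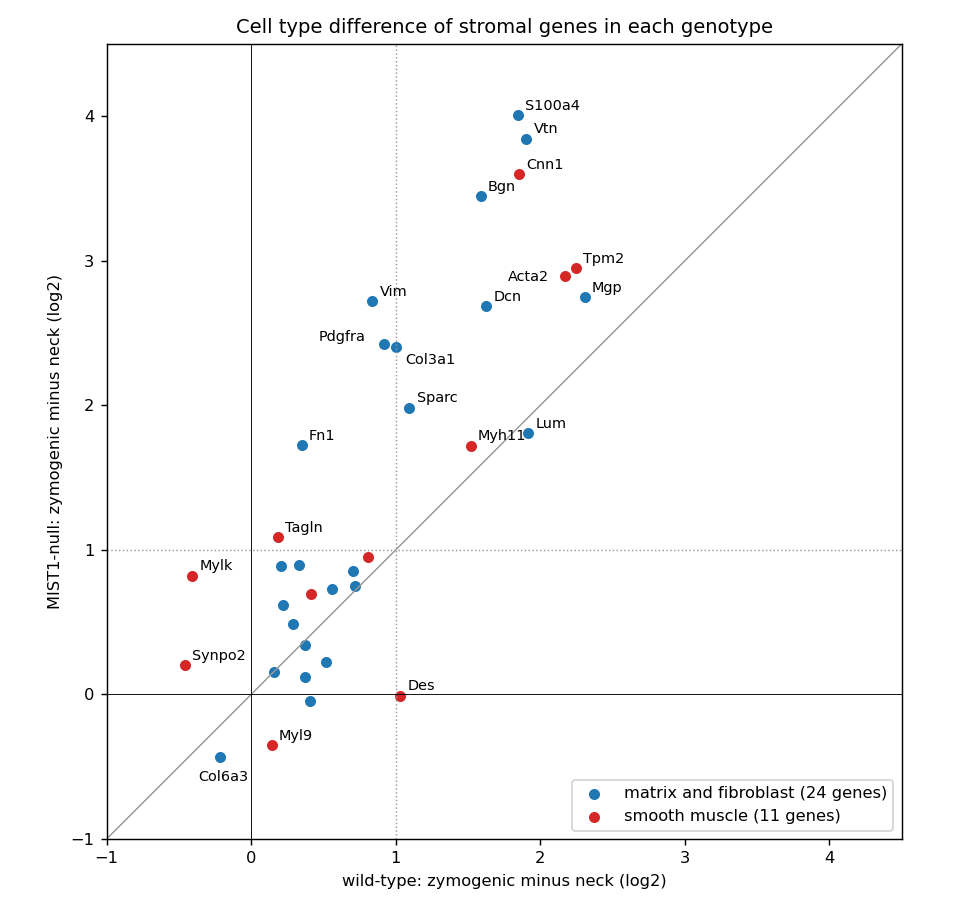
Zymogenic minus neck difference (log2) of each of the 35 genes in wild-type mice (horizontal) and in MIST1-null mice (vertical), coloured by block, with dotted lines at 2-fold and a diagonal of equal difference. Points lie above the diagonal for 26 of 35 genes, and S100a4, Vtn, Cnn1 and Bgn lie highest.

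In the smooth muscle block, Tpm2, Acta2, Cnn1 and Myh11 had the largest cell type differences in both genotypes. Tpm2, a tropomyosin that winds along actin filaments, read 83.9 in wild-type neck, 397 in wild-type zymogenic, 45.3 in MIST1-null neck and 349 in MIST1-null zymogenic cells. Its differences were 2.24 and 2.95, with no overlap of the cell types. Acta2, smooth muscle alpha-actin, whose upstream stretch is shown above, read 60.7 in wild-type neck, 274 in wild-type zymogenic, 33.1 in MIST1-null neck and 246 in MIST1-null zymogenic cells. It differed by 2.17 and 2.89, much as Tpm2 did. Cnn1, calponin, which restrains actomyosin, read 47.9 in wild-type neck, 173 in wild-type zymogenic, 10.6 in MIST1-null neck and 129 in MIST1-null zymogenic cells. The MIST1-null neck value was far under the mark of low signal, and the differences were 1.85 and 3.60, or 1.36 and 1.92 with a pseudocount of 32. Myh11, the smooth muscle myosin heavy chain, read 46.8 in wild-type neck, 134 in wild-type zymogenic, 41.4 in MIST1-null neck and 136 in MIST1-null zymogenic cells. Its values differed little between genotypes, and the cell type differences were 1.52 and 1.72.

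The other contractile genes were weaker or mixed. Actg2, the gamma-actin of visceral muscle, differed by 0.81 and 0.95, and Lmod1, which nucleates actin filaments, by 0.41 and 0.69. Tagln, an actin-binding protein abundant in smooth muscle, read 38.0 in wild-type neck, 43.2 in wild-type zymogenic, 19.9 in MIST1-null neck and 42.4 in MIST1-null zymogenic cells, under the mark of low signal throughout. Des, the muscle intermediate filament protein desmin, was also under it on all arrays, with differences of 1.03 and -0.01. The myosin light chain Myl9 differed by 0.14 and -0.35, its kinase Mylk by -0.41 and 0.82, and Synpo2, an actin-bundling protein, by -0.46 and 0.20. The 6 contractile genes whose mean reached the mark of low signal had medians of 1.69 and 2.31, and the 5 others had 0.14 and 0.20. That mean includes the high zymogenic values, so these medians are a description only.

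**Figure D3:**
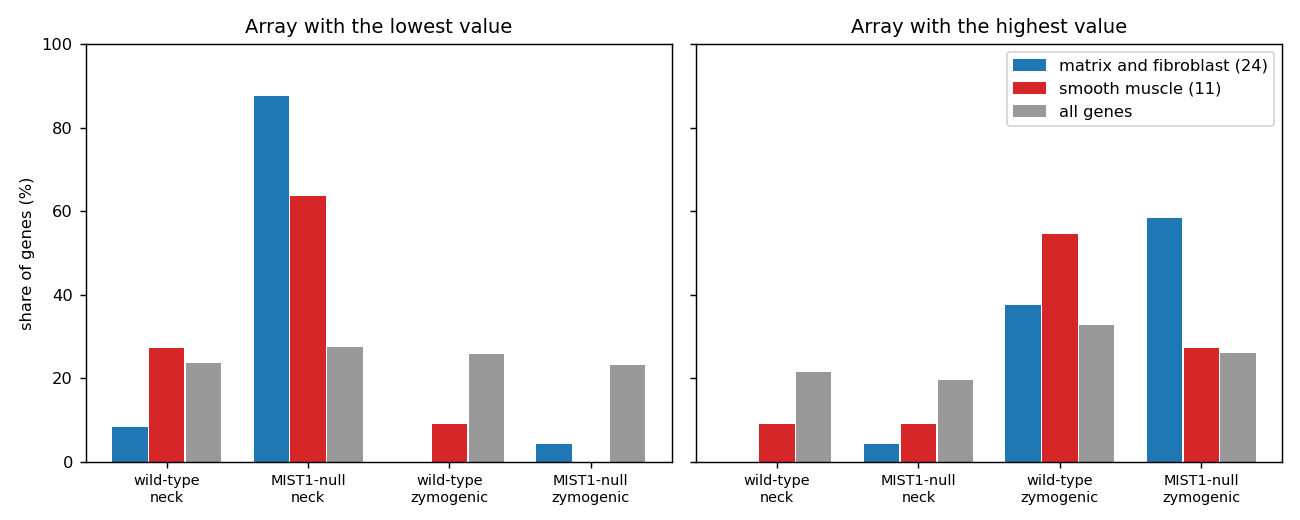
Share of genes (bars, %) with their lowest value (left) and their highest value (right) on each array, for the matrix and fibroblast block, the smooth muscle block and all genes. MIST1-null neck is the lowest array for most genes of both blocks, and the zymogenic arrays are the highest for nearly all.

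In neck cells, stromal values were mostly lower on the MIST1-null than on the wild-type array. In MIST1-null minus wild-type neck cells, 29 of 35 genes were below 0, as were 10495 of all 19938 genes. The median of the 35 was -0.26 against -0.03 over all genes. At least 2-fold lower were 4 of them, namely S100a4 (-2.54), Cnn1 (-2.17), Vtn (-1.83) and Vim (-1.10). The share of all genes at least 2-fold lower was 2.79%, and 1.67% were higher. With a pseudocount of 32, S100a4 alone kept a 2-fold difference in this comparison, at -1.28, and Vtn, Cnn1 and Vim were at -0.98, -0.91 and -0.77. The medians were -0.16 for matrix and fibroblast and -0.45 for smooth muscle genes, where Tagln, Tpm2, Acta2 and Actg2 lay between -0.93 and -0.86. The contractile genes Myl9 (0.83) and Des (0.67) went the other way. Markers of other cell types were also lower on the MIST1-null neck array, with 8 of 10 endocrine (median -0.42), 12 of 17 leukocyte (-0.46), 7 of 8 pericyte (-0.25) and 12 of 14 endothelial markers (-0.24) below 0. Their part in the stromal values was not tested. Of the 35 genes, 28 had their lowest value on the MIST1-null neck array, as had 27.4% of all genes. The count was 24 to 25 under the quantile, median and loess normalizations, with 21.9% to 23.4% of all genes. Of genes past 2-fold in neck cells, 37.5% were higher in MIST1-null mice in the values as deposited, against 48.2% after quantile normalization and 50.5% after cyclic loess.

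In zymogenic cells, the median genotype difference of the stromal genes was near 0. The median over 35 genes was 0.02 against -0.01 over all genes, with 19 above 0. Bgn (1.70), Fn1 (1.11) and Pdgfra (1.01) were at least 2-fold higher in MIST1-null zymogenic cells, a count of 3 of 35 where 4.23% of all genes were higher. With a pseudocount of 32 Bgn alone stayed past 2-fold, at 1.38, and Pdgfra and Fn1 were at 0.79 and 0.69. None of the 35 was 2-fold lower, where 5.85% of all genes were. As this share is close to the background, it is no result about the set. Of genes past 2-fold in this comparison, 41.9% were higher in MIST1-null mice as deposited, against 55.2% after quantile normalization and 53.5% after cyclic loess. Of the 11 smooth muscle genes, 5 were above 0, among them Mylk (0.78) and Lmod1 (0.40), and the block had a median of -0.03. The 6 below 0 included Actg2 (-0.71), Cnn1 (-0.42), Tpm2 (-0.19) and Acta2 (-0.16). The matrix and fibroblast block had a median of 0.11 with 14 of 24 above 0. Within it the collagens had a median of -0.01 with 5 of 11 above 0, and the other genes 0.36 with 9 of 13. That split was made after the values were seen. Whether the blocks differ in this respect was not tested, as there was 1 array a group. Parietal markers were higher on the MIST1-null zymogenic array for 9 of 9 genes, with a median of 0.97. General epithelial genes were above 0 for 7 of 10 (median 0.54) and endocrine markers for 7 of 10 (0.39). Pericyte markers were above 0 for 6 of 8 (0.33), leukocyte for 8 of 17 (-0.002) and endothelial for 8 of 14 (0.08). The part of these other cells in the stromal values was not tested.

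**Figure D4:**
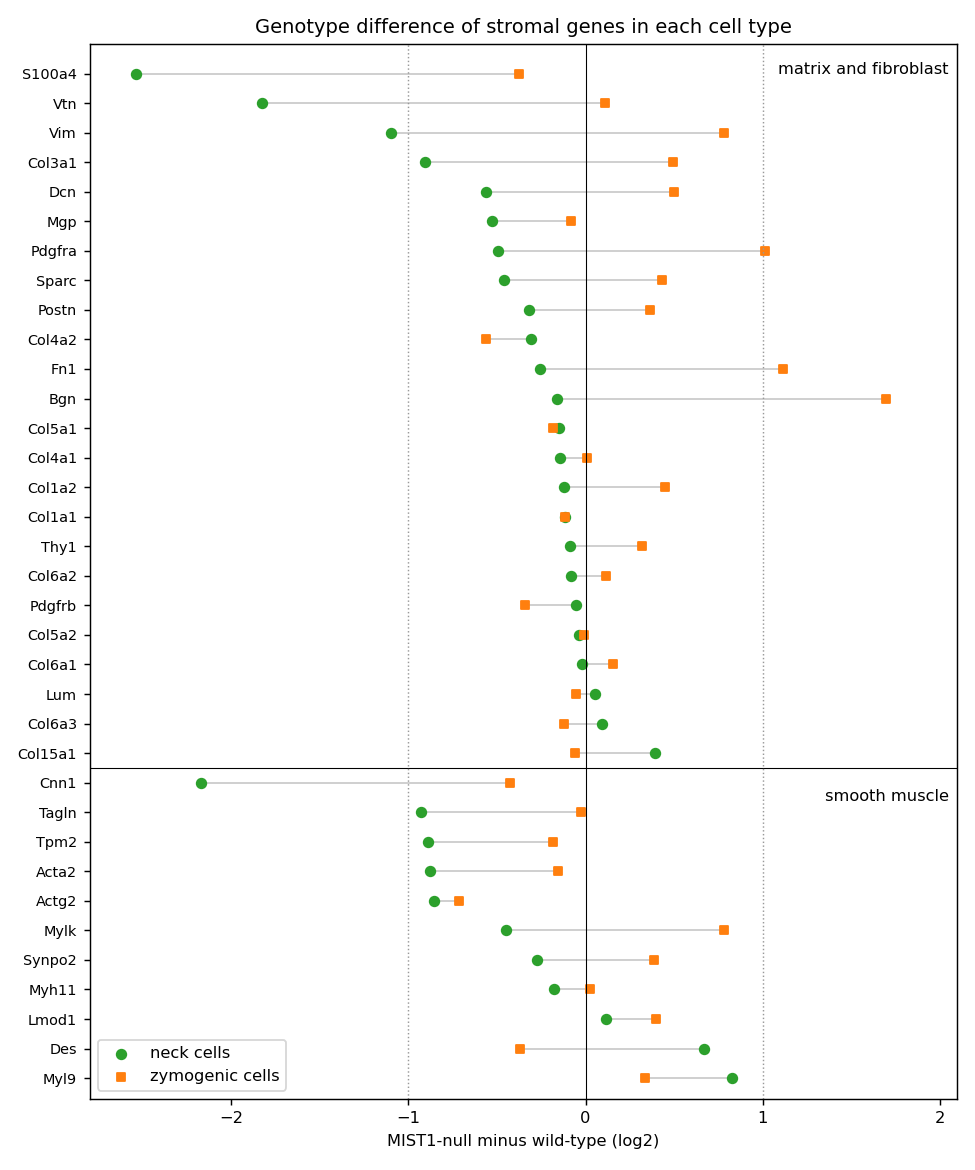
MIST1-null minus wild-type difference (log2) of each gene in neck cells (circles) and zymogenic cells (squares), ordered within each block by the neck value, with dotted lines at 2-fold. S100a4, Cnn1 and Vtn lie furthest left in neck cells, and Bgn lies furthest right in zymogenic cells.

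The cell types were further apart, in either direction, in MIST1-null than in wild-type mice for 27 of 35 genes, as for 45.4% of all genes. The signed zymogenic minus neck difference was larger in MIST1-null mice for 26 of 35 genes, as for 50.7% of all genes, with a median excess of 0.44 against 0.01. This excess equals the genotype difference in zymogenic cells minus that in neck cells, since the same 4 arrays enter. For S100a4 (2.16), Vtn (1.94) and Cnn1 (1.75) it came from the neck arrays, as their zymogenic values differed by -0.37, 0.11 and -0.42. For Bgn (1.86), Pdgfra (1.51) and Fn1 (1.37) more of it lay in the zymogenic arrays. The MIST1-null zymogenic array was also set against the wild-type neck array in place of the MIST1-null one, a choice made after seeing the data. The medians were then 0.74 for matrix and fibroblast and 0.66 for smooth muscle genes. Against the MIST1-null neck array they were 0.89 and 0.95, so both medians stayed above 0 and both became smaller. This exchange mixes genotype with cell type.

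Other matrix lists had smaller medians than the set itself. Of 38 other matrix genes, a zymogenic excess of at least 2-fold was seen for 4 in wild-type and 10 in MIST1-null mice, with medians of 0.14 and 0.46. Such an excess was seen for 5.85% of all genes in wild-type and 4.09% in MIST1-null mice. The fibulin-like Efemp1 differed by 2.03 and 2.38, the proteoglycans Ogn by 0.54 and 2.54 and Aspn by 0.27 and 1.82, and the laminin chain Lamb1 by 0.30 and 1.61. The other genes past 2-fold in wild-type mice were Fbln1 (1.73), Tnc (1.25) and the laminin chain Lama4 (1.01), all with a mean under the mark of low signal. Collagen-modifying enzymes and the collagen chaperone had medians of 0.18 and 0.28, with 1 of 17 genes at least 2-fold higher in each genotype. These were P4hb (1.01), a subunit of prolyl hydroxylase and a general folding enzyme of the secretory pathway, in wild-type mice and the lysyl hydroxylase Plod2 (1.35) in MIST1-null mice. Lox, the enzyme that cross-links collagen, was lower in zymogenic cells of both genotypes, by -1.86 and -1.37, at a mean under the mark of low signal. Matrix turnover genes had medians of 0.21 and 0.30, with 1 and 3 of 14 genes at least 2-fold higher. These were the protease inhibitor Timp2 (1.11) in wild-type mice and its relative Timp3 (1.22) with the proteases Adamts5 (1.51) and Adamts1 (1.02) in MIST1-null mice.

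Of 34 other smooth muscle genes, 3 (8.82%) were at least 2-fold higher in each genotype, where 5.85% and 4.09% of all genes were. Their medians were 0.13 and 0.17 against 0.05 in each genotype over all genes. Both zymogenic arrays read above both neck arrays for 9 of the 34 (26.5%), against 23.1% of all genes. This list thus lay near the background, and the genes named here are a description only. Jph2, which couples membranes in muscle, differed by 2.52 and 1.88 and the actin-binding Cald1 by 1.51 and 1.74. The third gene was Pgm5 (2.17) in wild-type and Nexn (1.64) in MIST1-null mice. The calponin Cnn2 (-1.34) and vinculin, Vcl (-1.01), which are also active in many other cells, were lower in wild-type zymogenic cells. The transcription factor Srf and its muscle partner Myocd had differences of 0.37 and 0.97 and of 0.18 and 1.00, both at intensities of 53.8 or less. Genes of skeletal or cardiac muscle had medians of 0.12 and 0.01, with 2 of 15 genes, Myl2 (1.52) and Myh6 (1.00), at least 2-fold higher in wild-type and 0 in MIST1-null mice.

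Ligands and receptors of growth factors that act on stroma were mixed, with medians of 0.11 and 0.25. At least 2-fold higher were 0 and 1 of 15 genes, where 5.85% and 4.09% of all genes were. Pdgfa, a ligand of Pdgfra, read 79.0 in wild-type neck, 102 in wild-type zymogenic, 88.4 in MIST1-null neck and 315 in MIST1-null zymogenic cells. Like Pdgfra it was highest on the MIST1-null zymogenic array, as were 26.1% of all genes. Pdgfd, a ligand of Pdgfrb, read 236 in wild-type neck, 49.7 in wild-type zymogenic, 268 in MIST1-null neck and 116 in MIST1-null zymogenic cells. It was thus lower in zymogenic than in neck cells of both genotypes. Between the zymogenic arrays it was, like Pdgfa, higher in MIST1-null mice.

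Markers of some further cell types also differed between zymogenic and neck cells. For the counts that follow, 5.85% of all genes were at least 2-fold higher in wild-type and 4.09% in MIST1-null mice. Of 17 leukocyte markers, 5 in wild-type and 7 in MIST1-null mice had at least 2-fold more signal in zymogenic cells, and their summed intensities were 638, 1081, 500.3 and 936 in wild-type neck, wild-type zymogenic, MIST1-null neck and MIST1-null zymogenic cells. Among them were the antigen presentation genes H2-Aa (1.19 and 2.15) and Cd74 (1.82 and 1.86). Of the 17 leukocyte markers, 3 in wild-type and 5 in MIST1-null mice were below 0. Of 10 endocrine markers, 4 and 7 were at least 2-fold higher, with sums of 5968, 9056, 3876 and 13124 in the same order. Pericyte markers had 2 and 4 of 8 genes higher, with sums of 644, 1508, 470.4 and 1955. In wild-type mice 4 of the 8 were above 0 and 4 below, with a median of 0.07 against 0.05 over all genes. In MIST1-null mice 8 of 8 were above 0, with a median of 0.83 against 0.05. The genes past 2-fold were Rgs5, a regulator of G proteins in pericytes, at 1.04 and 2.25, and the peptidase Anpep at 2.07 and 2.66. In MIST1-null mice the potassium channel genes Abcc9 (1.86) and Kcnj8 (1.28) joined them. Endothelial markers had 0 and 1 of 14 higher, the latter being Kdr (1.04), with sums of 762, 775, 588 and 729. Enteric glia and neuron markers had 1, S100b (1.02), and 0 of 11 higher. Markers of interstitial cells of Cajal, the pacemakers of the muscle wall, had 0 and 1 of 5 higher, the latter being Etv1 (1.02). With 0 or 1 gene past 2-fold, the endothelial, glia and Cajal lists are a description only. No marker was at the intensity floor on any array.

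Most general epithelial genes ran opposite to the stromal genes between cell types. The 10 general epithelial genes had medians of -0.84 in wild-type and -0.33 in MIST1-null mice, with sums of 2632, 1572, 2893 and 2222 in the order used above. At least 2-fold lower were 2 of the 10 in wild-type and 1, Epcam, in MIST1-null mice, where 5.29% and 3.89% of all genes were. Above 0 were 2 of 10 in each genotype, reaching 0.17 and 0.52. Epcam, a surface protein of epithelia, differed by -0.87 and -1.22 and the cadherin Cdh1 by -0.97 and -0.41. In wild-type mice other genes of the list went down to -1.49. The part of these other cells, and of the epithelial share of the captured RNA, in the stromal differences was not tested.

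**Figure D5:**
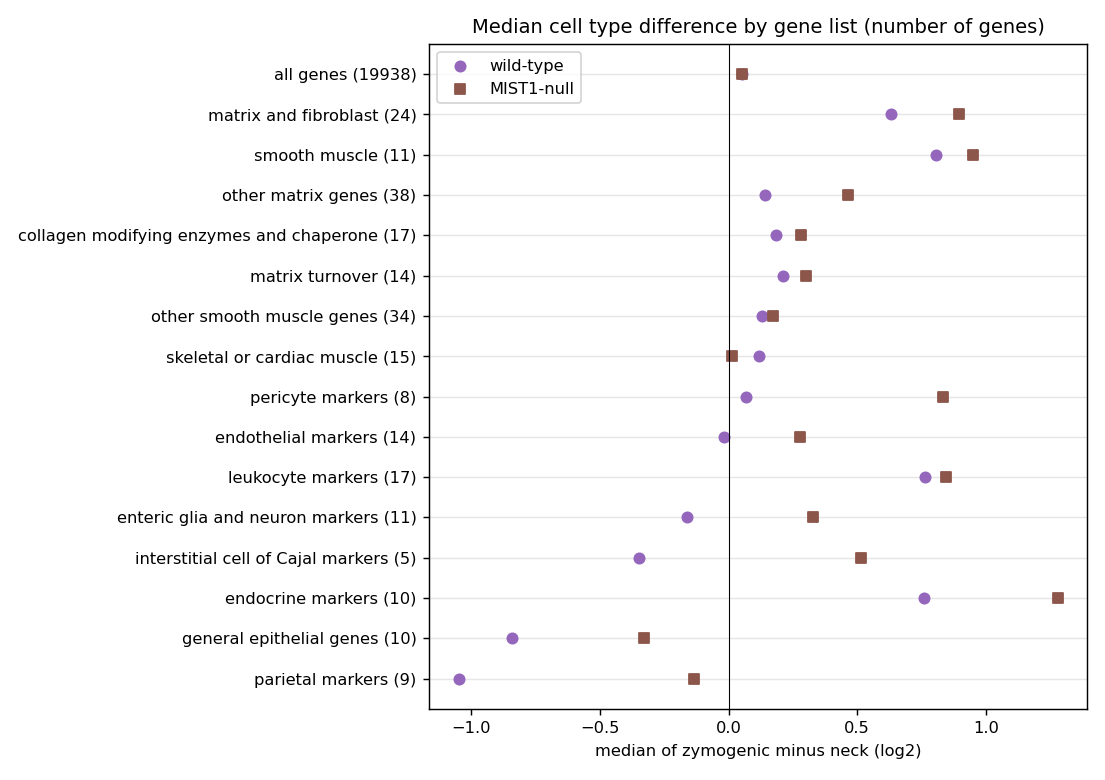
Median zymogenic minus neck difference (log2) over the genes of each list in wild-type (circles) and MIST1-null mice (squares), with the number of genes in brackets. The matrix, smooth muscle, leukocyte and endocrine lists lie to the right of all genes in both genotypes, and epithelial and parietal lists lie to the left.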

How the data were processed

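RNA from laser-captured cells was amplified, labelled with biotin and hybridized to Affymetrix Mouse Gene 1.0 ST arrays, per the labels and the design text. The deposited intensity values per probe set are linear, and the authors used dChip to compare the arrays, as the design text states. The sources used here do not give the background correction, probe summary or scaling. Signal over background is unknown, and 1 array a group limits the precision. Of 35512 probe sets, the platform annotation gives 21789 a single gene, 1621 several, and leaves 12102 unnamed. A gene was read from its probe set with the highest mean, which left 19938 genes. Values were floored at 1 and taken as log2.

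No test was run. Members are described in full where their mean log2 reached the 75th percentile of values (6.34), or where 2 or more comparisons passed 2-fold with at least 1 array at the mark of low signal (5.45). Genes of other lists are the up to 4 largest differences among those whose mean reached that mark, and Srf, Myocd, genes of lower mean named to fill a small count, and the full values of Col1a1 and Tagln were chosen after values were seen. Epcam and Cdh1 are exceptions to that rule, as other genes of their list differed more in wild-type mice. The members and lists were chosen with earlier results of these data known. Alternatives were quantile, median and cyclic loess normalization (limma 3.58.1), a pseudocount of 32, filters on the mean at the median and the 75th percentile, and the mean over probe sets. The code was tested on simulated data. Promoters are RefSeq sequences of GRCm38.p6.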

Additional observations from a re-analysis of the deposited data

Results flagged for a closer look

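Vim, vimentin, had opposite genotype differences in the 2 cell types, each of at least 0.5. It was 0.78 higher in MIST1-null zymogenic cells and differed by -1.10 in neck cells, so the differences lay 1.88 apart. The difference between the cell types was not tested, since each value rests on a pair of arrays. With a pseudocount of 32 the values were 0.69 and -0.77.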

How the results depend on the processing

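No paired analysis was possible because each group had 1 array and the labels carry no replicate numbers. Every median of either block with a size of at least 0.1 kept its sign under quantile normalization, median centring, cyclic loess and a pseudocount of 32. The mean over probe sets could not alter a member, since each has 1 probe set, and is no check. Quantile normalization, median centring and cyclic loess left all medians and counts within 1.5 times or 0.1 of the values given. A pseudocount of 32 shrank values, by its construction most at low intensity. Wild-type zymogenic minus neck medians were then 0.40 for matrix and fibroblast and 0.46 for smooth muscle genes, with 5 matrix genes at least 2-fold higher. The smooth muscle medians were 0.50 in MIST1-null zymogenic minus neck cells and -0.24 between genotypes in neck cells, and 1 matrix gene, Bgn, stayed 2-fold higher in MIST1-null than in wild-type zymogenic cells. Filters on the mean keep genes such as Acta2, S100a4 and Vtn through their high zymogenic values, so the filtered values that follow support nothing. With genes whose mean reached the median level, 6 smooth muscle genes remained, with medians of 1.69 and 2.31 for cell type in wild-type and MIST1-null mice and -0.17 and -0.87 for genotype in zymogenic and neck cells. At the 75th percentile 8 matrix genes remained, with medians in the same order of 1.36, 2.70, 0.27 and -0.73, and with 7 genes 2-fold higher in MIST1-null zymogenic over neck cells and 0 between genotypes in zymogenic cells. Of smooth muscle genes 2 remained there, with 2.21, 2.92, -0.17 and -0.88, and both, 2 of 2, were 2-fold higher for cell type in each genotype. Among single genes, a pseudocount of 32 took 11 differences under 2-fold, median centring and cyclic loess 2 each and quantile normalization 1, among them Des in wild-type mice under all 4 of these settings. Values near the mark of low signal, as for Des, Tagln and Pdgfrb, limit what can be read.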
